A study of Homo sapiens with 12 samples.

Results

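The comparison covers the control arrays of 2 human carcinoma cell lines, SW780 from a bladder carcinoma and A549 from a lung adenocarcinoma. Its members were picked by their labels, with earlier results of these data known. They were 8 of the 12 arrays in the series, 4 of each line. The 4 arrays of cells given the siRNA against KDM3A, a demethylase of histone H3K9, were left out. The cells of every group carried a control duplex: 2 arrays of each line came from cells given siEGFP and 2 from cells given siFFluc, siRNAs named for a fluorescent protein and a firefly enzyme that human cells do not have, at 100 nM for 24 h with a lipid reagent. No untransfected cells were analysed here. The medium was RPMI1640 for A549 and Leibovitz L-15 for SW780, both with serum and antibiotics, and the growth conditions in the labels differ in carbon dioxide as well, so the line and its medium cannot be told apart. Each tissue is represented by 1 line, so the values describe these lines and not bladder and lung tumours. The labels do not tell whether numbered replicates came from different cultures. The p-values therefore cover array-to-array spread only, and that may be technical.

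Bladder epithelium is built of basal cells, intermediate cells and umbrella cells, and the umbrella cells coat their surface with uroplakin plaques under the direction of GATA3, FOXA1 and the nuclear receptor PPARG. Alveolar epithelium of the lung is kept by NKX2-1 and makes surfactant proteins. Carcinoma lines retain such programmes to varying degrees, and many lose epithelial junctions in favour of vimentin, N-cadherin and ZEB1. A549 is widely described as carrying an inactive KEAP1, which leaves the oxidant-response factor NRF2 active, and SW780 as carrying a fusion of the growth factor receptor gene FGFR3 with BAIAP2L1.

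Total RNA was hybridised to Affymetrix U133 Plus 2.0 arrays, on which each probe set reads 1 stretch of a transcript, and values are linear MAS5 signals as deposited. Differences are SW780 minus A549 on the scale log2(signal + 16), so a value of 1 is 2-fold, a negative value means a higher signal in A549, and differences of dim genes are understated. All control arrays had the same trimmed mean of 500.1, while the median signal was 57.3 to 58.9 in A549 and 50.2 to 54.1 in SW780. The ratio of the 3' to the 5' probe sets of beta-actin, a sign of RNA integrity, was 1.2 to 1.295 in A549 and 1.392 to 1.437 in SW780. That of GAPDH was 0.914 to 0.932 and 0.96 to 0.999. Both ratios and the median moved with the line, and their part in the differences was not tested.

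The lines differed in most of their transcripts. Of 14067 genes tested with limma, 67.7% passed an adjusted p of 0.05, 4123 (29.3%) with the higher signal in SW780 and 5400 (38.4%) in A549. A stricter call also asked for a difference of at least 2-fold, and 1455 genes (10.3%) met it with SW780 higher and 2328 (16.5%) with A549 higher. Counts of list members below use the stricter call and stand against the latter shares, except where members are said only to be called, which stands against the former. At 4-fold or more there were 563 genes with SW780 higher and 890 with A549 higher, and at 16-fold or more 113 and 210. The 4 SW780 arrays all lay above the 4 A549 arrays for 25.2% of genes and all below for 33.9%. The median difference of all genes was -0.11. It became 0.03 when each array was scaled to the same median, and the split of all calls then turned, with 4948 genes higher in SW780 and 4405 in A549. The 2-fold calls kept more genes on the A549 side under that scaling (1742 and 1933). Within a line the arrays correlated across genes at 0.98 to 0.987 and between lines at 0.838 to 0.843 (genes are not independent of each other). The first principal component held 86.2% of the variance and separated the lines.

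KDM3A, the gene the series set out to lower, was itself unequal between the control arrays. Its signals were 1300, 1307, 1519 and 1437 in A549 and 410, 373, 359 and 433 in SW780. The groups did not overlap, and the difference was -1.78 ± 0.08, adjusted p = 1.81e-08. Its relatives differed by less than 2-fold, KDM3B with means of 1485 in A549 and 1669 in SW780 and JMJD1C of 797 in A549 and 598 in SW780.

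Before the lineage genes, the line labels were set against a locus on which both lines are often characterised. CDKN2A encodes the inhibitors p16 and p14ARF, MTAP salvages methionine from polyamine synthesis, and the neighbouring genes are commonly deleted together in carcinomas. A549 is generally recorded as lacking both genes. In the arrays labelled A549, however, CDKN2A gave signals of 1030, 1009, 1039 and 1004, whereas the arrays labelled SW780 gave 86.3, 23.3, 56.5 and 75.4 (-3.85 ± 0.25, adjusted p = 1.85e-07). MTAP likewise gave 610, 507, 542 and 694 in the arrays labelled A549 and 2.1, 4.2, 1.7 and 22.7 in those labelled SW780 (-4.75 ± 0.26, adjusted p = 4.48e-08). Another CDKN2A probe set gave 203.2 to 227.6 and 1.4 to 34.2. For MTAP the call ended when probe sets that can read several transcripts were left out (-0.10), because the probe set then used read 66.1 to 109.3 and 49.3 to 96.4. The other MTAP probe sets outside the shared ones were dimmer. They read 70.9 to 79.9 in A549 and 3.4 to 20.2 in SW780, and 43.9 to 88.7 in A549 and 1.1 to 4.3 in SW780. The last was near the floor in both lines, at 3.7 to 31.9 and 4.5 to 42.6. The signal therefore went against the usual description of A549 at this locus, and the identity of the cells was not tested. A549 and SW780 below mean the arrays that carry those labels.

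**Figure D1:**
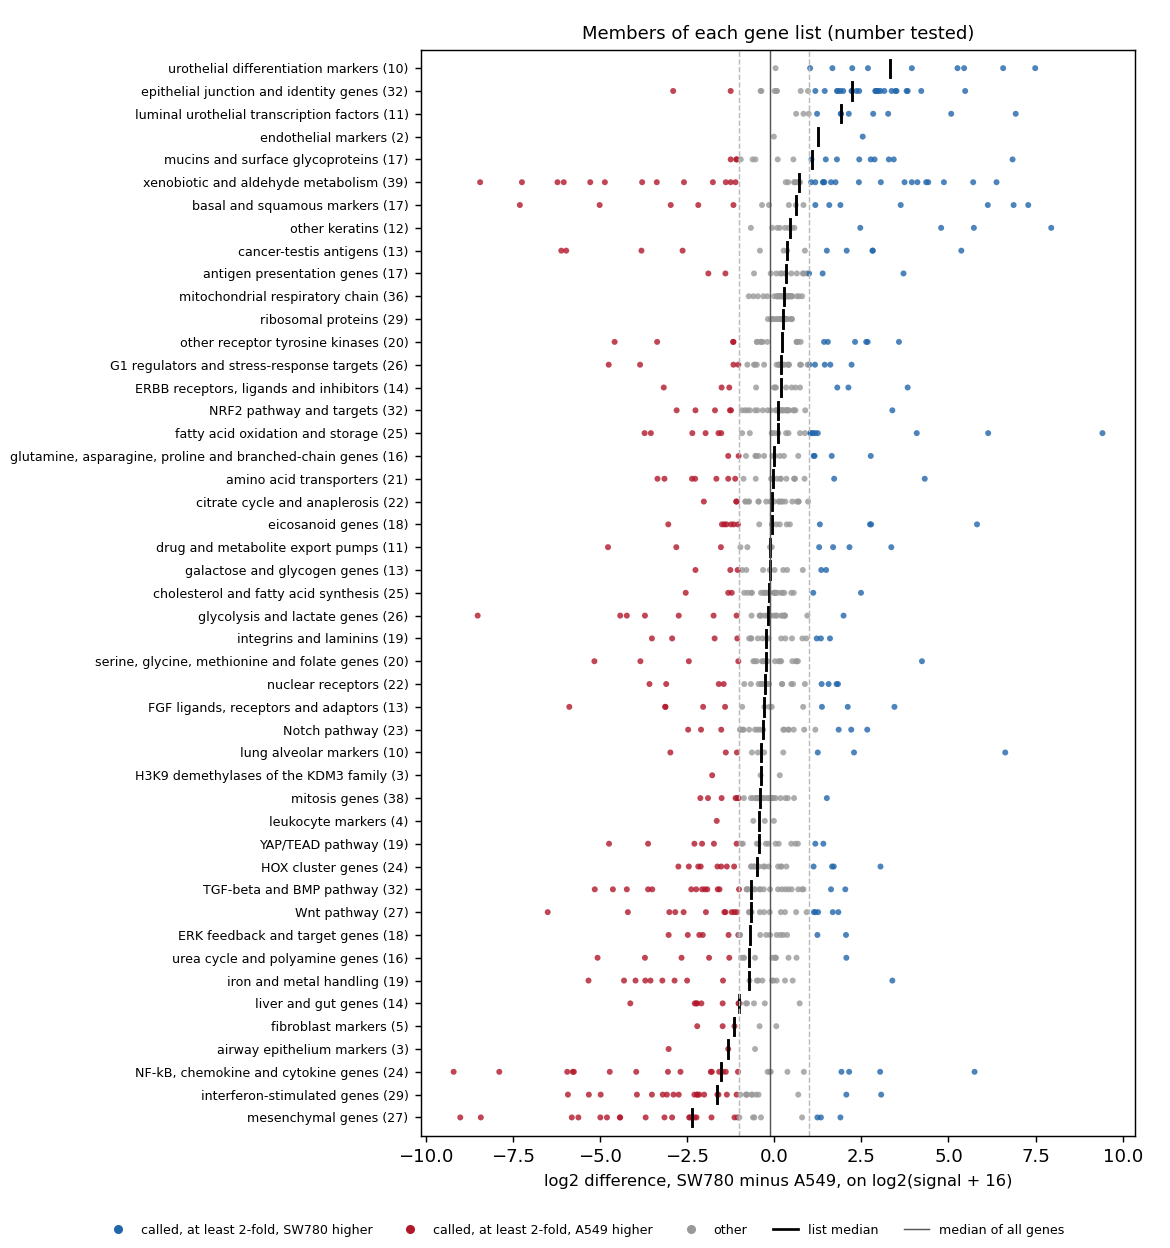
Difference of every tested member of the 47 gene lists (SW780 minus A549 on log2(signal + 16), with the number tested in brackets), lists ordered by their median (black bar). Blue and red points are members called with a difference of at least 2-fold, the thin vertical line is the median of all genes and the dashed lines mark 2-fold. Urothelial and junction genes lie furthest to the SW780 side and mesenchymal and interferon-stimulated genes furthest to the A549 side.

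The largest differences in the SW780 direction were of FABP4, LY6D, VGLL1, KRT13, TMT1A, CYP4B1, IVL, TMPRSS4, GRHL3 and SPRR3, from 9.42 to 6.87. FABP4, a fatty acid carrier under the control of PPARG, had signals of 11.8, 11.4, 30.3 and 17 in A549 and 20619, 18423, 27132 and 24550 in SW780. LY6D, a surface protein of stratified epithelia, had means of 16.3 ± 11.4 in A549 and 19091 ± 2941 in SW780 (SD, n = 4 arrays in each line, as for all means below). VGLL1, a cofactor of TEAD transcription factors, had means of 10.6 ± 7.15 in A549 and 8761 ± 664 in SW780. All 3 were close to the floor of the array in A549. The largest differences in the A549 direction were of DSTN, CXCL5, VIM, CA12, ALDH1A1, RSPO3, TPM2, IGFBP7, CRIP1 and UCHL1, from -9.57 to -8.04. DSTN, an actin-depolymerising factor, had signals of 24306, 23428, 24847 and 23976 in A549 and 1.5, 1, 38.2 and 47.3 in SW780. RSPO3, a secreted enhancer of Wnt signalling, had means of 8431 ± 406 in A549 and 8.8 ± 5.02 in SW780, and UCHL1, a ubiquitin hydrolase of neurons and neuroendocrine cells, 14146 ± 416 in A549 and 41.8 ± 24.7 in SW780. The size of some depended on the probe set. Without probe sets shared between transcripts the differences were -1.73 for DSTN, -3.00 for CXCL5, -2.85 for TPM2 and -2.35 for UCHL1. With the probe sets of a gene averaged they were -5.14 for VIM, -5.63 for CA12 and 5.09 for TMT1A. Averaging also gave 6.53 for FABP4, 5.92 for CYP4B1 and 4.86 for SPRR3. All of these genes stayed called.

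Urothelial differentiation genes were nearly all higher in SW780. Of 12 members 10 were tested, 9 were higher in SW780 by at least 2-fold and the remaining member was not called, with a list median of 3.32. UPK1B, a tetraspanin that pairs with uroplakin 3 in the umbrella cell plaque, had signals of 597, 590, 751 and 703 in A549 and 10110, 9782, 11274 and 10414 in SW780. Its difference was 3.95 ± 0.06, adjusted p = 4.14e-12. UPK1A, the partner of uroplakin 2, had signals of 75.5, 40.7, 29 and 13.7 in A549 and 1854, 1919, 1887 and 2144 in SW780 (5.26 ± 0.18, adjusted p = 1.23e-09). UPK2 was weaker, at 33.5, 10.5, 59.7 and 43.3 in A549 and 153, 77.6, 194 and 166 in SW780. The SW780 arrays lay above A549 for all 3 genes, and the UPK2 difference was 1.67 ± 0.28, adjusted p = 0.000358. UPK3A stayed at 6.25 in A549 and 6.35 in SW780, below the limit for testing in both lines. PSCA, a small surface antigen of bladder and prostate, had means of 26.2 ± 8.06 in A549 and 3977 ± 814 in SW780, and CYP4B1, a bladder and lung monooxygenase, 6.5 ± 5.09 in A549 and 3975 ± 420 in SW780. KRT20, the umbrella cell keratin, reached only 76.3 in SW780 against 28 in A549.

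The factors that direct luminal urothelial fate were higher in SW780 as a group, with 11 of 11 tested members called and 8 of them at least 2-fold (median 1.92). GATA3 had signals of 385, 420, 315 and 310 in A549 and 11452, 10803, 16049 and 12339 in SW780, a difference of 5.08 ± 0.08, adjusted p = 8.93e-12. PPARG was present in both lines, with signals of 2152, 2214, 2557 and 2378 in A549 and 5748, 5447, 4851 and 5861 in SW780 (1.23 ± 0.07, adjusted p = 6.11e-08). FOXA1, which opens chromatin for GATA3 and steroid receptors, had means of 179 ± 38.1 in A549 and 832 ± 53.5 in SW780. GRHL3, needed for umbrella cells and skin barrier, was near the floor in A549 and bright in SW780, with means of 7.3 ± 2.56 in A549 and 2822 ± 320 in SW780. The epithelial ETS factor EHF had means of 645 ± 82 in A549 and 6337 ± 574 in SW780 and OVOL1 255 ± 65.4 in A549 and 1941 ± 540 in SW780. FOXA2, a forkhead factor of lung, liver and gut, went the other way, with signals of 995, 1007, 1214 and 1062 in A549 and 38, 46, 40.3 and 60.6 in SW780 (-4.13 ± 0.14, adjusted p = 1.14e-09).

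Lung alveolar genes did not mark the A549 arrays. Of 16 members 10 were tested, with 3 at least 2-fold higher in each line and a median of -0.38. NKX2-1 gave means of 9.9 in A549 and 55.8 in SW780 and was under the limit for testing. SFTPB, which encodes surfactant protein B, had signals of 211, 187, 161 and 173 in A549 and 142, 125, 117 and 125 in SW780, a difference of -0.47 ± 0.14, adjusted p = 0.0135. The call ended under 6 alternatives, and its direction turned, without a call, when probe sets that can read several transcripts were left out (0.13 ± 0.28, adjusted p = 0.723). ABCA3, the lipid pump of lamellar bodies, was higher in A549, with means of 192 ± 28 in A549 and 10.9 ± 7.38 in SW780. HOPX, a homeodomain cofactor of type 1 alveolar cells that is also present in other epithelia, had signals of 1.6, 4.4, 4.8 and 2.7 in A549 and 1821, 1931, 1796 and 2030 in SW780. LAMP3 was higher in SW780 as well, at 86.5 ± 22.5 in A549 and 479 ± 63.5 in SW780, so the members that moved did not share a direction. Of 3 airway genes tested, the mucin gene MUC5AC had means of 147 ± 11.4 in A549 and 4 ± 1.26 in SW780, a call that ended without shared probe sets (-0.37), and SOX2, a factor of basal airway cells, 322 ± 48.8 in A549 and 123 ± 37.6 in SW780. SCGB1A1 and FOXJ1, which define club and ciliated cells, were below the limit in both lines.

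Liver and gut genes stood on the A549 side, with 8 of 14 tested members at least 2-fold higher there and a median of -1.02. The strongest was FOXA2. APOH, a plasma apolipoprotein, had means of 327 ± 28.5 in A549 and 59.4 ± 24.8 in SW780, and the fibrinogen genes FGA and FGG 103 ± 22.5 in A549 and 8.2 ± 1.14 in SW780 and 96.9 ± 26.9 in A549 and 9.6 ± 12 in SW780. The FGA call ended without shared probe sets (-0.18). The albumin and apolipoprotein B genes had means of 18 in A549 and 16.7 in SW780 and of 21.5 in A549 and 23.6 in SW780, all under the limit for testing.

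Basal and squamous genes were split between the lines, with 7 of 17 tested members at least 2-fold higher in SW780 and 5 in A549 (median 0.62). The basal cell keratin KRT14 had signals of 9347, 10733, 10321 and 10141 in A549 and 63, 72.3, 27.1 and 40.5 in SW780 (-7.30 ± 0.10, adjusted p = 3.2e-12). Its partner KRT5 had signals of 5534, 5976, 5642 and 5476 in A549 and 90.9, 144, 291 and 166 in SW780 (-5.01 ± 0.16, adjusted p = 9.63e-10). Like CDKN2A and MTAP, these keratins are not part of the usual description of A549. The 2 serpins SERPINB3 and SERPINB4, which share most of their sequence, were higher in A549 too. Genes of the cornified envelope went the other way. IVL, a precursor of the cornified envelope, had signals of 39.2, 29.9, 45.4 and 67.6 in A549 and 11532, 10719, 8345 and 7408 in SW780, and SPRR3 and SPRR1A, which are cross-linked into that envelope, had means of 64.6 ± 12.4 in A549 and 9384 ± 662 in SW780 and of 8.02 ± 7.3 in A549 and 1641 ± 324 in SW780. Other members fell on either side. TRIM29 had means of 711 ± 55.4 in A549 and 9191 ± 2438 in SW780. S100A2 was higher in SW780 too, at 17391 ± 861 in A549 and 39810 ± 6420 in SW780. CD44 was higher in A549, at 15908 ± 481 in A549 and 7089 ± 726 in SW780. TP63, which drives the basal state, was not analysed here.

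Among the other keratins, KRT13, the keratin of intermediate urothelial cells, had signals of 45.4, 41.8, 25.5 and 46.5 in A549 and 12725, 12244, 17174 and 12707 in SW780 (7.95 ± 0.13, adjusted p = 1.05e-11). KRT19 had signals of 1047, 1199, 960 and 1116 in A549 and 27460, 24637, 37498 and 33063 in SW780 and KRT23 means of 11.7 ± 9.05 in A549 and 1405 ± 182 in SW780. The simple-epithelium keratins KRT7, KRT8 and KRT18 were bright in both lines and were higher in SW780 by less than 2-fold (0.58, 0.31 and 0.51), with the KRT8 call ending after quantile normalization (0.06) and the KRT7 call without shared probe sets (0.49). Of 12 tested members 4 were at least 2-fold higher in SW780, with a median of 0.46.

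**Figure D2:**
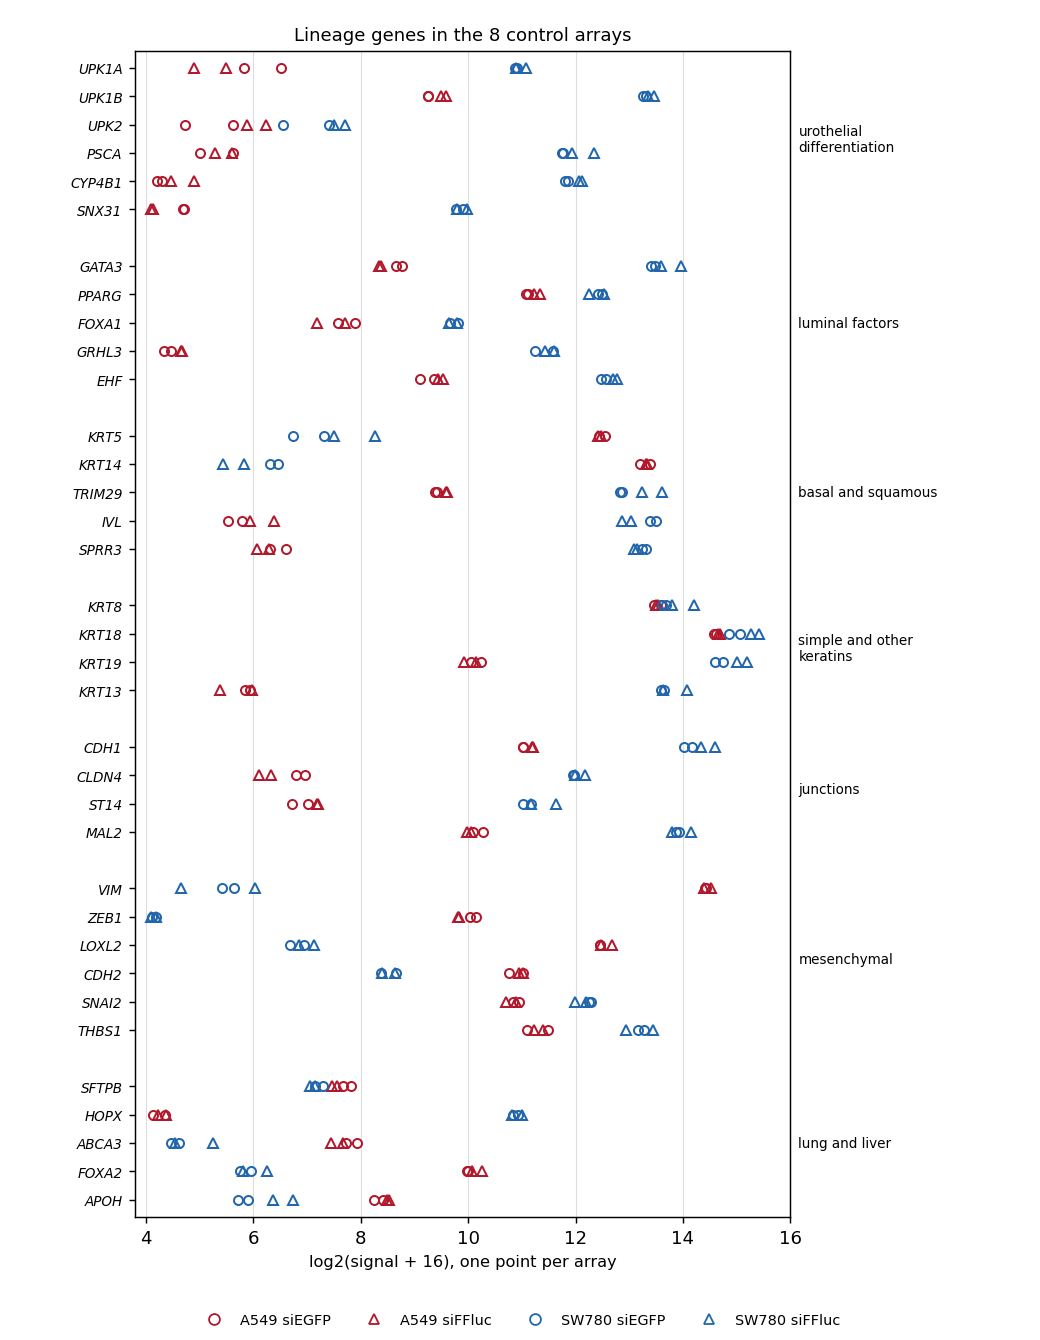
Signals of lineage genes in each of the 8 control arrays on a log2(signal + 16) axis. Red is A549 and blue SW780, circles are siEGFP and triangles siFFluc. Uroplakins, GATA3 and junction genes lie to the right in SW780, while KRT5, KRT14, VIM, ZEB1 and FOXA2 lie to the right in A549.

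Epithelial junction and identity genes were higher in SW780 in most cases. Of 32 tested members 23 were at least 2-fold higher in SW780 and 2 in A549, with a median of 2.23. CDH1, the E-cadherin of adherens junctions, had signals of 2061, 2062, 2355 and 2327 in A549 and 18275, 16509, 24670 and 20577 in SW780 (3.16 ± 0.07, adjusted p = 4.18e-11). CLDN4, a tight junction claudin, had signals of 109, 94.8, 53.1 and 64 in A549 and 3992, 3954, 4630 and 4051 in SW780 (5.48 ± 0.09, adjusted p = 1.05e-11). ST14, the membrane protease matriptase, had means of 116 ± 19.7 in A549 and 2455 ± 488 in SW780, and MAL2 and RAB25, which sort vesicles to the apical membrane, 1086 ± 102 in A549 and 15679 ± 1702 in SW780 and 194 ± 48 in A549 and 2860 ± 178 in SW780. ESRP1, which splices transcripts in the epithelial manner, had means of 787 ± 70.5 in A549 and 6013 ± 713 in SW780. The exceptions were CLDN2 (456 ± 25.8 in A549 and 48.2 ± 14.1 in SW780) and CLDN3 (117 ± 25.4 in A549 and 40.5 ± 13.9 in SW780). The tight junction scaffold TJP1 was within 2-fold, at 8229 in A549 and 6362 in SW780. The desmosomal DSP did not pass the test (2307 ± 1211 in A549 and 2429 ± 1336 in SW780), and its signals differed between the control siRNAs. In A549 they were 3302 and 3407 with siEGFP and 1288 and 1230 with siFFluc. In SW780 they were 3679 and 3488 with siEGFP and 1295 and 1254 with siFFluc.

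Mesenchymal genes showed the reverse, with 19 of 27 tested members at least 2-fold higher in A549 and 3 in SW780, and the lowest median of any list (-2.36). VIM, the intermediate filament vimentin, had signals of 21796, 22176, 23413 and 21497 in A549 and 26.7, 33.6, 49.5 and 9 in SW780 (-9.01 ± 0.23, adjusted p = 1.49e-10). ZEB1, a repressor of CDH1, had signals of 1116, 1036, 890 and 878 in A549 and 1.3, 2.2, 2.2 and 1 in SW780 (-5.81 ± 0.16, adjusted p = 2.63e-10). In SW780 both were at the floor. CDH2, N-cadherin, had means of 1951 ± 166 in A549 and 353 ± 38.2 in SW780, and LOXL2, which cross-links collagen, 5867 ± 473 in A549 and 104 ± 15.5 in SW780. The tropomyosin TPM2 had means of 7828 ± 687 in A549 and 8.22 ± 10.5 in SW780. The 3 members higher in SW780 were SNAI2 (1822 ± 128 in A549 and 4632 ± 391 in SW780), a repressor that basal epithelia also use, THBS1 (2526 ± 310 in A549 and 9488 ± 1395 in SW780), a secreted matrix protein, and TAGLN (824 ± 43.5 in A549 and 1969 ± 191 in SW780), an actin-binding protein. TAGLN lost its call without the probe sets shared between transcripts (0.14). FN1, fibronectin, was within 2-fold at 2467 in A549 and 1887 in SW780.

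Most markers of other cell types were low, with COL1A1 and LUM as exceptions. Fibroblast, leukocyte and endothelial lists had 5, 4 and 2 tested members. PTPRC, COL1A2, COL3A1, PDGFRA, CDH5 and KDR were under the limit for testing in both lines. Summed over its members, the fibroblast list gave 1425 to 1490 in A549 and 560 to 892 in SW780, the leukocyte list 278 to 434 and 214 to 316, and the endothelial list 117 to 156 and 226 to 348. COL1A1 and LUM, a collagen and a matrix proteoglycan, led the first, with means of 617 ± 87.8 in A549 and 123 ± 31.7 in SW780 and of 519 ± 67.6 in A549 and 398 ± 142 in SW780, and VWF the last, at 15.8 ± 2.13 in A549 and 171 ± 30.8 in SW780. The part of other cells in the results was not tested.

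Mucins and surface glycoproteins leaned to SW780, with 9 of 17 tested members at least 2-fold higher there and 3 in A549 (median 1.07). MUC20 had signals of 8.6, 2.5, 14.4 and 5.3 in A549 and 2496, 2465, 2818 and 2860 in SW780. The siderophore carrier LCN2 had means of 769 ± 159 in A549 and 8334 ± 928 in SW780, the protease inhibitor SLPI 946 ± 33.3 in A549 and 7083 ± 298 in SW780 and the adhesion antigen CEACAM5 38.4 ± 11.3 in A549 and 508 ± 58.8 in SW780. ALCAM, L1CAM and MUC13 were higher in A549, at -1.25, -1.09 and -1.07. The MUC13 arrays overlapped between the lines, and its call ended with either control siRNA alone (-1.36 and -0.77) and without A549 siEGFP replicate 1 (-0.95). Integrins and laminins were split, 3 and 4 of 19. ITGA2, a collagen receptor, had means of 2619 ± 323 in A549 and 7927 ± 204 in SW780, and the hemidesmosome genes ITGB4 and LAMB3 had differences of 1.34 and 1.22. The fibronectin receptor ITGA5 had means of 812 ± 99 in A549 and 56.5 ± 5.3 in SW780 and ITGB3 153 ± 12.8 in A549 and 6.6 ± 5.66 in SW780.

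HOX genes keep a memory of position along the body axis. Of 24 tested members 4 were at least 2-fold higher in SW780 and 8 in A549 (median -0.50). HOXD4 had means of 47.4 ± 25.5 in A549 and 468 ± 51.9 in SW780 and HOXB4 127 ± 26.9 in A549 and 446 ± 21.9 in SW780, while HOXB8, HOXC9, HOXC10 and HOXD10 were higher in A549, from -2.75 to -2.11. In the B cluster, HOXB2 and HOXB4 were higher in SW780, HOXB8 and HOXB9 in A549, and HOXB7 was at 2562 in A549 and 2117 in SW780. Cancer-testis antigens, silent in most adult tissues, were also divided, 5 and 4 of 13. PRAME had signals of 1809, 2069, 2172 and 2023 in A549 and 19.1, 20, 11.9 and 15.3 in SW780, and MAGEA4 had means of 1687 ± 261 in A549 and 10 ± 11.1 in SW780. CTAG2, which encodes LAGE-1, had signals of 5.8, 7.2, 4.5 and 4.6 in A549 and 923, 943, 625 and 1078 in SW780. MAGE and CTAG genes have near-identical copies, so probes may read more than 1 of them.

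The signalling genes were described next, beginning with the receptors. FGF receptors bind fibroblast growth factors and feed the RAS and ERK cascade. The lines used different members: FGFR1 had signals of 1225, 1290, 1016 and 968 in A549 and 111, 111, 108 and 129 in SW780 (-3.12 ± 0.10, adjusted p = 8.55e-10), and FGFR3 had signals of 63.2, 67.4, 59 and 25.3 in A549 and 635, 606, 891 and 788 in SW780 (3.45 ± 0.18, adjusted p = 3.97e-08). FGFR2 was higher in SW780, with means of 168 ± 18.5 in A549 and 780 ± 55.2 in SW780, a call that ended without the probe sets shared between transcripts (0.16). FGFR4 was higher in A549, with means of 250 ± 26.3 in A549 and 18.2 ± 21.9 in SW780. The ligand FGF2 had signals of 1392, 1212, 1820 and 1679 in A549 and 2.6, 11.9, 1.7 and 32.4 in SW780. FGFR3 and FGFR2 were thus on the SW780 side and FGFR1, FGFR4 and FGF2 on the A549 side, and in all 13 tested members 3 and 5 were at least 2-fold apart. BAIAP2L1, the usual fusion partner of FGFR3 in SW780, did not pass the test (3433 ± 176 in A549 and 3105 ± 115 in SW780, -0.14 ± 0.06, adjusted p = 0.0562). It passed under 7 alternatives, with differences of -0.14 to -0.77, and the array does not read the junction of a fusion transcript.

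ERBB receptors bind the EGF family. EGFR had signals of 4966, 4422, 5727 and 6087 in A549 and 5033, 4802, 6457 and 5384 in SW780, and the groups overlapped (0.03 ± 0.07, adjusted p = 0.693). When all EGFR probe sets were averaged the difference was -0.26 ± 0.08 (adjusted p = 0.018), and 2 dimmer probe sets were called lower in SW780. ERBB3, the neuregulin receptor without an active kinase, had signals of 114, 148, 48.2 and 70.3 in A549 and 1450, 1415, 1565 and 1432 in SW780 (3.83 ± 0.13, adjusted p = 1.04e-09). ERBB2 was higher in SW780 by less than 2-fold (563 ± 43.3 in A549 and 951 ± 115 in SW780) and ERBB4 by 1.81 at low signal. The ligand EREG had means of 9180 ± 1034 in A549 and 3260 ± 764 in SW780 and NRG1 of 5335 ± 410 in A549 and 2172 ± 119 in SW780, both higher in A549. LRIG1, which promotes the breakdown of ERBB receptors, had means of 182 ± 19 in A549 and 6.8 ± 7.36 in SW780. Over the 14 tested members 3 were at least 2-fold higher in each line.

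Of 20 other receptor tyrosine kinases tested, 6 were at least 2-fold higher in SW780 and 4 in A549. The ephrin receptors EPHB6, EPHA1 and EPHB3 and the kinase STYK1 led the SW780 side, with differences of 3.58, 2.68, 2.32 and 2.64. NTRK3, the receptor for neurotrophin 3, had signals of 588, 828, 887 and 685 in A549 and 9.2, 9.4, 8.7 and 45.6 in SW780. ROR1, a Wnt5a receptor, had means of 799 ± 325 in A549 and 58.9 ± 7.49 in SW780 and IGF1R of 2497 ± 64.6 in A549 and 1104 ± 59.6 in SW780, although another IGF1R probe set was called the opposite way. RET was also called higher in A549 but lost the call under 14 of the 20 alternatives that tested it (-1.79 to -0.56). The hepatocyte growth factor receptor MET differed by less than 2-fold (10328 ± 1205 in A549 and 8238 ± 912 in SW780), and its call ended under median scaling (-0.17).

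Genes switched on by ERK, and those that feed back on it, had 6 of 18 members at least 2-fold higher in A549 and 2 in SW780 (median -0.69). The ETS factors ETV4, ETV5 and ETV1 had means of 579 ± 87.7 in A549 and 90.6 ± 17.8 in SW780, 1051 ± 216 in A549 and 249 ± 89.1 in SW780 and 145 ± 42.1 in A549 and 3.22 ± 2.07 in SW780. IER3, an early response gene, had means of 12584 ± 1928 in A549 and 2798 ± 69.4 in SW780. EGR1 and the potassium channel KCNN4 were higher in SW780, with means of 759 ± 66.2 in A549 and 1810 ± 159 in SW780 and of 529 ± 40.4 in A549 and 2267 ± 286 in SW780. DUSP6, the phosphatase of ERK, differed by 0.37 ± 0.08, adjusted p = 0.00133, with means of 1029 ± 72.3 in A549 and 1357 ± 309 in SW780, a call that ended with siFFluc arrays alone (0.11).

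TGF-beta and BMP genes were mostly higher in A549, with 13 of 32 tested members at least 2-fold higher there and 2 in SW780 (median -0.66). The ligand TGFB2 had signals of 1524, 1589, 1729 and 1570 in A549 and 137, 99.2, 89.7 and 146 in SW780 (-3.62 ± 0.15, adjusted p = 4.92e-09). BMPR1B, a receptor for BMPs, had signals of 774, 772, 808 and 775 in A549 and 13.4, 4.9, 5.6 and 3.1 in SW780 (-5.15 ± 0.18, adjusted p = 1.41e-09). The activin subunit INHBB had means of 825 ± 363 in A549 and 28.2 ± 18.2 in SW780 and the BMP antagonist GREM1 of 816 ± 69.2 in A549 and 21.4 ± 19.1 in SW780. The inhibitory SMAD6 and SMAD7, which TGF-beta and BMP signals induce, had means of 1166 ± 160 in A549 and 280 ± 16.8 in SW780 and of 953 ± 82.6 in A549 and 298 ± 20.2 in SW780. TGFBR3, the co-receptor betaglycan, and SKIL, a repressor of SMADs, were the 2 members higher in SW780, with means of 575 ± 129 in A549 and 2385 ± 211 in SW780 and of 1696 ± 418 in A549 and 5336 ± 1619 in SW780.

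Wnt pathway genes had 11 of 27 tested members at least 2-fold higher in A549 and 5 in SW780 (median -0.67). DKK3, a secreted protein of the Dickkopf family, had signals of 1812, 1862, 2270 and 2085 in A549 and 5.5, 16.3, 3.4 and 2.2 in SW780. SFRP1, which binds and sequesters Wnts, had means of 1898 ± 140 in A549 and 90.8 ± 25.3 in SW780, the receptor FZD2 3171 ± 56.3 in A549 and 383 ± 68.7 in SW780 and the R-spondin receptor LGR4 2645 ± 147 in A549 and 356 ± 38.1 in SW780. AXIN2, a common readout of beta-catenin, had means of 228 ± 10.3 in A549 and 25.2 ± 11 in SW780. The ligands WNT5A, WNT10A, WNT4 and WNT7A were higher in SW780, by 1.84, 1.68, 1.26 and 1.18. With the receptor FZD7, at 427 in A549 and 934 in SW780, they made up the 5 members on that side. The call of WNT4, a dim gene, ended with either control siRNA alone.

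The Notch list was near its background, with 3 of 23 tested members at least 2-fold higher in each line. HES1, a repressor induced by Notch, had means of 327 ± 24.2 in A549 and 1573 ± 169 in SW780, and DTX4, a ubiquitin ligase acting on Notch, 483 ± 53.6 in A549 and 3141 ± 100 in SW780. The coactivator MAML2 was the remaining member on that side, by 1.85. JAG2 and DLL3, ligands, and MAML3 were higher in A549, with differences of -2.10, -2.47 and -1.52. NOTCH1 itself differed by 0.86, under 2-fold.

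Chemokine and cytokine genes under NF-kB were mostly higher in A549, with 15 of 24 tested members at least 2-fold higher in A549, 4 in SW780 and a median of -1.53. CXCL5, which attracts neutrophils, had signals of 19850, 16736, 19598 and 19076 in A549 and 19.5, 0.9, 29.2 and 22.9 in SW780 (-9.20 ± 0.19, adjusted p = 3.45e-11). CXCL2, of the same family, had signals of 7800, 7433, 10221 and 10091 in A549 and 10.8, 24.9, 55.5 and 8.1 in SW780 (-7.89 ± 0.28, adjusted p = 1.58e-09). The monocyte attractant CCL2 had means of 1689 ± 151 in A549 and 15.9 ± 8.14 in SW780 and the interleukin IL11 of 3880 ± 320 in A549 and 49.2 ± 19.9 in SW780. CXCL8 was bright in both, with means of 10406 ± 4116 in A549 and 3550 ± 722 in SW780. The interleukin 1 genes went the other way: IL1A had means of 842 ± 252 in A549 and 3680 ± 139 in SW780 (0.33, not called, without shared probe sets), IL1B 594 ± 135 in A549 and 2277 ± 203 in SW780, and their antagonist IL1RN had signals of 72.7, 56.8, 55.5 and 129 in A549 and 4374, 4082, 6482 and 4845 in SW780 (5.75 ± 0.19, adjusted p = 1.21e-09). CXCL16, a membrane-bound chemokine, was the remaining member higher in SW780, at 204 ± 13.6 in A549 and 1799 ± 229 in SW780. The general NF-kB targets NFKBIA and TNFAIP3 had means of 5208 in A549 and 4882 in SW780 and of 1636 in A549 and 1420 in SW780. In A549 the siFFluc arrays read above the siEGFP arrays for IL1A and CXCL2, and the line difference remained called for both with either control siRNA alone.

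Interferons bind their receptors, and a complex that holds IRF9 then binds a short element that repeats GAAA in the promoters of their targets. The promoters of 5 genes are shown because the element was found both in genes that were high in A549 and in the pair that was high in SW780. They are windows upstream of the RefSeq transcription start (assembly GRCh38.p14), written 5′ to 3′ in the direction of the gene, with each match to the element (GAAA, any 2 bases, GAAA) on either strand in capitals, so that TTTC marks a match on the other strand, and overlapping matches joined.
IFIT1 at chr10:89392487-89392549 on the plus strand: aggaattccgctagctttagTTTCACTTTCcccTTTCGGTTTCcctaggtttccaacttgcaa
IFI27 at chr14:94110608-94110670 on the plus strand: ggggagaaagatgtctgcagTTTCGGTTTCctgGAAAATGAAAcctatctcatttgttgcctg
IFI6 at chr1:27672256-27672368 on the minus strand: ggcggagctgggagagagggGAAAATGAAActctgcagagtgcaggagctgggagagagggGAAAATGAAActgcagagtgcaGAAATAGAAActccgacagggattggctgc
BST2 at chr19:17405725-17405780 on the minus strand: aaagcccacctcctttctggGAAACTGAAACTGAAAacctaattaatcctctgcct
SAMD9 at chr7:93118086-93118135 on the minus strand: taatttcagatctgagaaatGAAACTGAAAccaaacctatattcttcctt
The element lay within the 250 bases before the start in 16 of the 24 interferon-stimulated genes with a promoter in the table, against 3.07% of all 27305 promoters searched. It was present in 9 of the 14 promoters of genes at least 2-fold higher in A549, in both of those higher in SW780 and in 5 of the 7 other tested genes. A match is a string of letters and not evidence that a factor binds there.

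Of 29 tested interferon-stimulated genes, 18 were at least 2-fold higher in A549 and 2 in SW780, with a median of -1.63. IFIT1, which binds viral RNA lacking a host cap, had signals of 6934, 7068, 8559 and 8480 in A549 and 191, 186, 256 and 298 in SW780 (-4.98 ± 0.07, adjusted p = 3.2e-12). IFI27 had signals of 5342, 5506, 5343 and 5319 in A549 and 55.8, 48.5, 99.8 and 101 in SW780 (-5.92 ± 0.08, adjusted p = 2.74e-12). IFITM1, which hinders viral entry, had means of 2892 ± 147 in A549 and 58 ± 15.3 in SW780, the antiviral GTPase MX1 2496 ± 289 in A549 and 156 ± 62.5 in SW780 and IFI6 4169 ± 277 in A549 and 439 ± 37.1 in SW780. IRF9 and IRF7 themselves had means of 2610 ± 103 in A549 and 341 ± 43.8 in SW780 and of 1141 ± 124 in A549 and 157 ± 23.8 in SW780, higher in A549. BST2, or tetherin, which holds budding virus at the membrane, had signals of 237, 397, 283 and 347 in A549 and 2610, 2664, 2661 and 3018 in SW780 (3.07 ± 0.14, adjusted p = 1.21e-08). SAMD9 had signals of 1293, 1238, 1895 and 1708 in A549 and 6550, 6986, 6491 and 5628 in SW780 (2.07 ± 0.07, adjusted p = 8.55e-10). All cells had received duplex RNA by transfection, and the signals of untransfected cells were not analysed here.

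Of 17 tested antigen presentation genes 10 were called higher in SW780 and 3 in A549, against 29.3% and 38.4% of all genes, and 3 and 2 were at least 2-fold apart. ERAP2, a peptidase that trims antigens, had signals of 182, 152, 80.7 and 78.7 in A549 and 2253, 1973, 1673 and 1147 in SW780. HLA-E had means of 2805 ± 175 in A549 and 7384 ± 615 in SW780. NLRC5, the activator of class I genes, was higher in A549 at 204 ± 28.2 in A549 and 45.8 ± 21.3 in SW780, and CIITA was at 38.6 in A549 and 46.7 in SW780. The YAP and TEAD list had 6 of 19 tested members at least 2-fold higher in A549 and 2 in SW780. TEAD2 had signals of 644, 654, 579 and 622 in A549 and 7, 5.2, 5.6 and 15.7 in SW780, the target CCN2 had means of 1663 ± 157 in A549 and 384 ± 42.3 in SW780 and NT5E 4821 ± 250 in A549 and 976 ± 105 in SW780, while YAP1 was at 4559 in A549 and 4996 in SW780 and CCN1 at 7596 in A549 and 7816 in SW780.

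**Figure D3:**
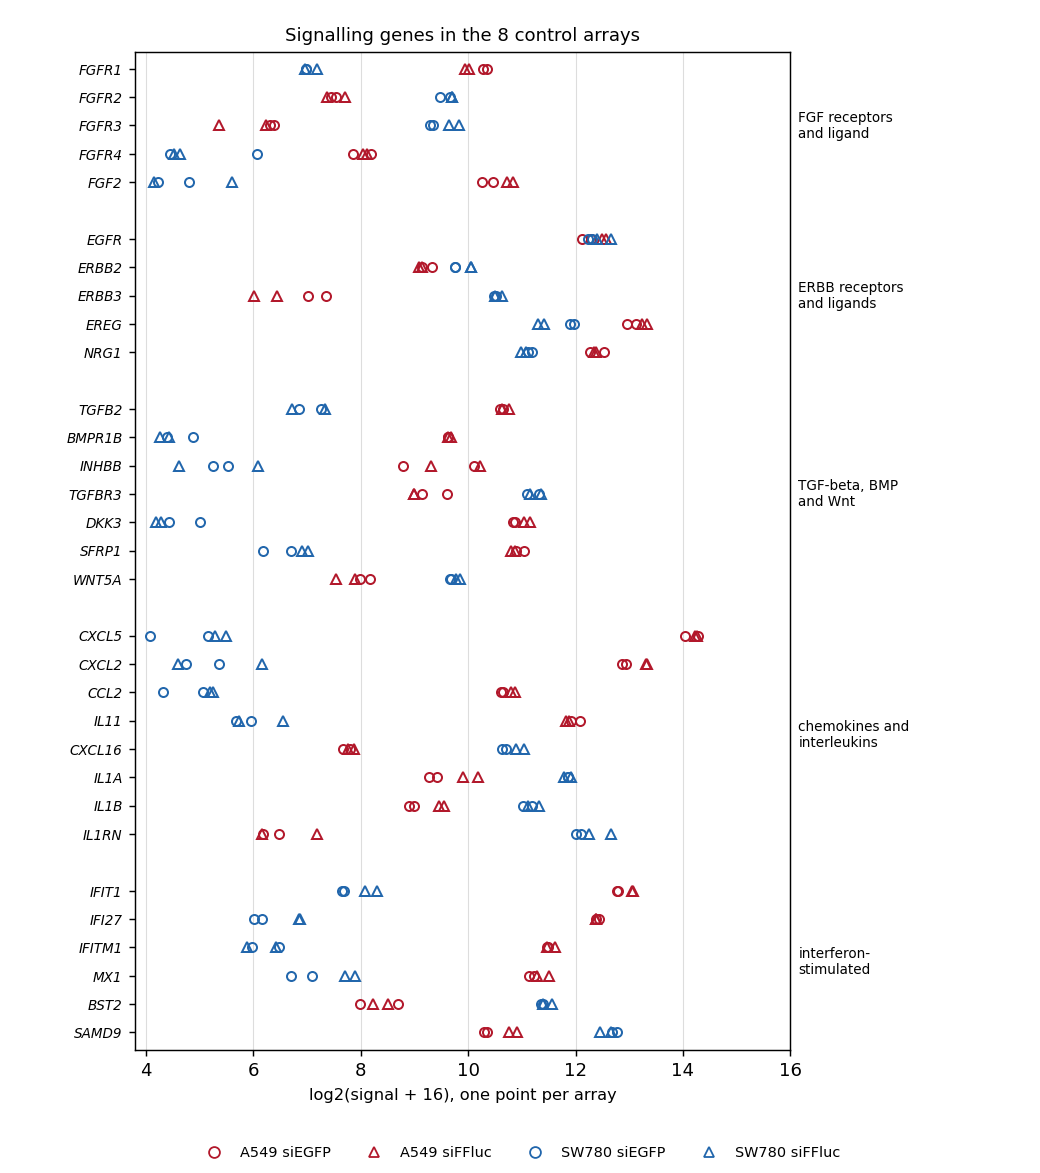
Signals of signalling genes in each of the 8 control arrays on a log2(signal + 16) axis, red for A549 and blue for SW780, circles for siEGFP and triangles for siFFluc. FGFR1 and FGFR3 lie on opposite sides, EGFR overlaps, chemokines and most interferon-stimulated genes lie to the right in A549, and IL1A, IL1B, IL1RN, BST2 and SAMD9 lie to the right in SW780.

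The list of G1 regulators and stress-response targets, counted whole and with no gene described above left out, was divided, 5 and 4 of 26 tested at 2-fold. MDM2, a ubiquitin ligase, had means of 1948 ± 157 in A549 and 4432 ± 569 in SW780, ZMAT3 435 ± 16.3 in A549 and 2086 ± 177 in SW780 and CCNE2, cyclin E2, 1252 ± 214 in A549 and 3424 ± 442 in SW780. BAX, which promotes apoptosis, was higher in A549, at -1.03. CCND1 was at 5001 in A549 and 5268 in SW780. Among nuclear receptors, the glucocorticoid receptor NR3C1 had means of 6404 ± 193 in A549 and 2124 ± 223 in SW780, the retinoic acid receptor RARB 467 ± 53 in A549 and 42.8 ± 19.4 in SW780 and NR5A2 587 ± 181 in A549 and 36.5 ± 23.6 in SW780, all higher in A549. PPARD, THRB, VDR and PPARA were higher in SW780, by 1.79, 1.83, 1.36 and 1.56, which made 4 of 22 tested members in each direction.

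The metabolic genes began with the oxidant response. NRF2, encoded by NFE2L2, is held back by KEAP1 and drives genes for glutathione, thioredoxin and the pentose phosphate pathway. Here 6 of 32 tested members were at least 2-fold apart, 5 with A549 higher, against 26.9% of all genes in either direction. NQO1, the most used readout of NRF2, had signals of 22812, 20021, 19778 and 19012 in A549 and 22190, 20443, 27771 and 26140 in SW780 (0.23 ± 0.06, adjusted p = 0.00552). The call ended with siEGFP arrays alone (0.00), in a fit with 1 mean per line (0.23) and with its probe sets averaged (0.05), and the direction turned under quantile normalization (-0.19 ± 0.03, adjusted p = 0.00069). The aldo-keto reductase AKR1B10 had signals of 28728, 31301, 31335 and 28988 in A549 and 15630, 13726, 22658 and 20058 in SW780 (-0.77 ± 0.07, adjusted p = 2.17e-06). AKR1C1 had means of 22724 ± 543 in A549 and 29103 ± 5360 in SW780. Its difference, 0.34, lost its call after quantile normalization (0.09) and turned when probe sets shared between transcripts were left out (-0.42 ± 0.10, adjusted p = 0.00406). The AKR1C genes are near-identical and the probes may read more than 1 of them. TXNRD1 had means of 25010 ± 976 in A549 and 20137 ± 3416 in SW780, a call that ended under median scaling (-0.17) and with siFFluc arrays alone (-0.18). The lowest signal of these 4 genes on any control array was 13726. HMOX1, haem oxygenase, had signals of 7582, 8238, 7654 and 7855 in A549 and 1528, 1499, 1878 and 1629 in SW780 (-2.26 ± 0.06, adjusted p = 2.77e-10). The pumps ABCC3 and ABCC2 had means of 3899 ± 424 in A549 and 550 ± 113 in SW780 and of 1501 ± 173 in A549 and 614 ± 76.1 in SW780. GPX2, a glutathione peroxidase of epithelia, was the member that was higher in SW780, with signals of 1482, 1663, 1703 and 1894 in A549 and 16533, 14603, 20716 and 19810 in SW780 (3.39 ± 0.07, adjusted p = 2.56e-11). NFE2L2 itself differed by 0.61 and KEAP1 by -0.93. The list median was 0.12 and -0.12 after quantile normalization, so the sign of the list depended on the scaling.

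Enzymes that act on foreign compounds and aldehydes were among the most divergent genes: 17 of 39 tested members were at least 2-fold higher in SW780 and 13 in A549. ALDH1A1, which makes retinoic acid, had signals of 24222, 24272, 23667 and 24856 in A549 and 25.6, 63.5, 74.6 and 62.7 in SW780 (-8.44 ± 0.16, adjusted p = 2.16e-11). ALDH1A3, of the same function, had means of 1454 ± 188 in A549 and 19859 ± 4023 in SW780, so the lines differed in opposite directions for the pair. The mitochondrial ALDH2 had signals of 2791, 3044, 2624 and 3231 in A549 and 5.7, 21.6, 36 and 75.8 in SW780. CYP1B1, an oxidase of polycyclic compounds, had means of 2644 ± 170 in A549 and 22.2 ± 14.5 in SW780, the vitamin D hydroxylase CYP24A1 5971 ± 854 in A549 and 197 ± 67.5 in SW780 and NNMT, which methylates nicotinamide, 7836 ± 1052 in A549 and 37.2 ± 14.3 in SW780. On the SW780 side, the glutathione transferase GSTM1 had signals of 136, 175, 138 and 197 in A549 and 13465, 11916, 17406 and 16265 in SW780 (6.38 ± 0.11, adjusted p = 1.21e-11). GSTM2, GSTM3 and GSTM4 had means of 237 ± 49.8 in A549 and 13127 ± 2286 in SW780, 1169 ± 79.9 in A549 and 18449 ± 2630 in SW780 and 123 ± 17.5 in A549 and 2832 ± 261 in SW780. The GSTM genes are close copies, and GSTM1 is absent from the genome of many people, so a signal may come from a relative. The glucuronosyltransferase UGT1A6 had means of 51.3 ± 10.5 in A549 and 1414 ± 137 in SW780, CYP2J2 39 ± 25.8 in A549 and 1430 ± 71.7 in SW780 and CYP3A5 30.7 ± 19.1 in A549 and 735 ± 99.5 in SW780.

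Genes of sugar use differed at a few steps. Of 26 tested glycolysis and lactate genes 7 were at least 2-fold higher in A549 and 1 in SW780. HK2, the inducible hexokinase, was the latter, with signals of 386, 342, 390 and 323 in A549 and 1320, 1430, 1955 and 1282 in SW780 (1.99 ± 0.13, adjusted p = 1.96e-07). The neuronal glucose transporter SLC2A3 had means of 423 ± 76.6 in A549 and 7.6 ± 4.87 in SW780, the enolase ENO2 944 ± 127 in A549 and 57.2 ± 7.19 in SW780, PFKFB3, which activates phosphofructokinase, 4464 ± 483 in A549 and 669 ± 189 in SW780 and PDK4, which shuts pyruvate dehydrogenase, 1110 ± 77.7 in A549 and 36.4 ± 2.96 in SW780. The membrane carbonic anhydrase CA12 had signals of 12225, 11354, 12847 and 12416 in A549 and 12.6, 34.4, 5.6 and 25 in SW780. SLC2A1, the main glucose transporter of carcinoma cells, did not pass the test (1962 ± 485 in A549 and 1621 ± 426 in SW780, -0.28 ± 0.13, adjusted p = 0.0712) but passed under 5 alternatives, from -0.28 to -0.93. GAPDH differed by 0.23 and LDHB by 0.24, and both calls ended after quantile normalization (0.01 for each).

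L-15 medium supplies galactose in place of glucose, which enters glycolysis through a short pathway that includes GALK1 and GALT. In SW780, grown in that medium, GALK1 had signals of 92, 62.2, 61.8 and 25.2 against 228, 365, 348 and 399 in A549 (-2.26 ± 0.24, adjusted p = 9.87e-06). GALT had means of 649 ± 49.2 in A549 and 364 ± 13.8 in SW780 (-0.80 ± 0.09, adjusted p = 1.51e-05). Both were lower in SW780. PGM2 and the liver phosphorylase PYGL were higher in SW780, with means of 2621 ± 273 in A549 and 7379 ± 414 in SW780 and of 2512 ± 177 in A549 and 6492 ± 1163 in SW780, and the brain phosphorylase PYGB was higher in A549 at 2450 ± 182 in A549 and 1028 ± 211 in SW780, a call that ended without shared probe sets (-0.77).

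Mitochondrial genes differed by small amounts. Of 36 tested respiratory chain genes 26 were called higher in SW780 and 5 in A549, and no member reached 2-fold. Their median was 0.27, and it was 0.06 after quantile normalization and 0.42 under median scaling. Of 22 citrate cycle and neighbouring genes 10 were called in each direction. ACLY, which turns citrate into acetyl-CoA, had means of 13606 ± 265 in A549 and 6418 ± 625 in SW780, ME3, a mitochondrial malic enzyme, 668 ± 15.6 in A549 and 154 ± 18.2 in SW780 and ACO1 1749 ± 79.5 in A549 and 820 ± 37.3 in SW780, the 3 members at least 2-fold apart and all higher in A549.

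Amino acid genes held several large single differences. PSAT1, of serine synthesis, had signals of 11597, 10232, 11533 and 10638 in A549 and 730, 730, 728 and 830 in SW780 (-3.84 ± 0.07, adjusted p = 1.32e-11), while PHGDH, the step before it, was higher in SW780 by 0.68. GLDC, which cleaves glycine, had signals of 1339, 1263, 1303 and 1250 in A549 and 10.7, 30.7, 43.2 and 8 in SW780 (-5.16 ± 0.27, adjusted p = 3.55e-08). The formyltetrahydrofolate dehydrogenases went in opposite directions, cytosolic ALDH1L1 with means of 30.2 ± 24.1 in A549 and 782 ± 73.4 in SW780 and mitochondrial ALDH1L2 with 98.9 ± 23.1 in A549 and 4.88 ± 3.51 in SW780. Of 20 tested serine, glycine and folate genes 4 were at least 2-fold higher in A549 and 1 in SW780. GLUL, which makes glutamine, had signals of 1296, 1294, 1516 and 1463 in A549 and 8592, 8070, 11514 and 10350 in SW780 (2.77 ± 0.06, adjusted p = 3.86e-11). BCAT1 and BCAT2, which start the breakdown of branched-chain amino acids, were both higher in SW780, at 1.65 and 1.16, the latter not called when its probe sets were averaged (0.30). ASNS, a target of the amino acid response, did not pass the test (3020 ± 144 in A549 and 2915 ± 277 in SW780). Of 21 transporters tested 7 were at least 2-fold higher in A549 and 2 in SW780. The glutamate transporter SLC1A3 had signals of 151, 127, 106 and 83.9 in A549 and 2685, 2631, 2469 and 2551 in SW780 (4.32 ± 0.10, adjusted p = 5.73e-11), and the chains of the leucine exchanger, SLC7A5 and SLC3A2, had means of 14886 ± 1282 in A549 and 4866 ± 1613 in SW780 and of 6794 ± 455 in A549 and 2713 ± 300 in SW780.

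Urea cycle and polyamine genes had 5 of 16 tested members at least 2-fold higher in A549 and 1 in SW780. CPS1, the ammonia-fixing enzyme of liver, had signals of 346, 429, 216 and 224 in A549 and 11.6, 57.4, 53.7 and 23.6 in SW780 (-2.66 ± 0.31, adjusted p = 1.88e-05). SMOX and SAT1, which break down polyamines, had means of 3545 ± 373 in A549 and 258 ± 49.9 in SW780 and of 11357 ± 1488 in A549 and 3100 ± 386 in SW780, and AGMAT, a relative of arginase, 823 ± 25.2 in A549 and 10.2 ± 9 in SW780, though other AGMAT probe sets gave -0.37 without a call. ARG2, the mitochondrial arginase, was the member higher in SW780 at 143 ± 44.3 in A549 and 634 ± 60.6 in SW780.

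Lipid genes were divided between the lines. Of 25 tested genes of fatty acid oxidation and storage, 8 were at least 2-fold higher in SW780 and 6 in A549. Besides FABP4, the fatty acid receptor CD36 had signals of 12.9, 1.6, 2.7 and 2.9 in A549 and 352, 270, 322 and 405 in SW780, and ACSL5, which activates fatty acids, had signals of 88.6, 80.4, 53.9 and 102 in A549 and 6806, 6519, 7050 and 6438 in SW780 (6.14 ± 0.14, adjusted p = 6.32e-11). CPT1A, the gate to mitochondrial oxidation, was higher in A549 with means of 1031 ± 83.2 in A549 and 250 ± 17 in SW780, as were the lipid droplet protein PLIN2 (3461 ± 293 in A549 and 669 ± 72.7 in SW780) and the lipase inhibitor ANGPTL4 (302 ± 48.1 in A549 and 12.5 ± 10.8 in SW780). PLIN2, ANGPTL4 and CPT1A are PPAR targets in many cells, as are FABP4 and CD36, so PPAR targets stood on both sides. In sterol and fatty acid synthesis 2 of 25 members were at least 2-fold higher in SW780 and 3 in A549, against 10.3% and 16.5% of all genes, among them SC5D (999 ± 80.8 in A549 and 5689 ± 603 in SW780), FADS2 (702 ± 102 in A549 and 117 ± 50.5 in SW780), INSIG1 (1254 ± 323 in A549 and 515 ± 44.6 in SW780) and SREBF1 (501 ± 23.3 in A549 and 196 ± 57.1 in SW780). In the eicosanoid list 7 of 18 members were called higher in each line, 4 by at least 2-fold in SW780 and 7 in A549. ALOX5, 5-lipoxygenase, had signals of 31.5, 15.1, 4.9 and 11.3 in A549 and 2045, 2028, 1228 and 1637 in SW780 (5.82 ± 0.18, adjusted p = 5.4e-10), and its activating partner ALOX5AP went the other way at 242 ± 25.2 in A549 and 76.4 ± 18.9 in SW780. PTGS1 had means of 423 ± 49.7 in A549 and 40.2 ± 21.8 in SW780, and PTGS2 was at 4643 in A549 and 6167 in SW780.

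**Figure D4:**
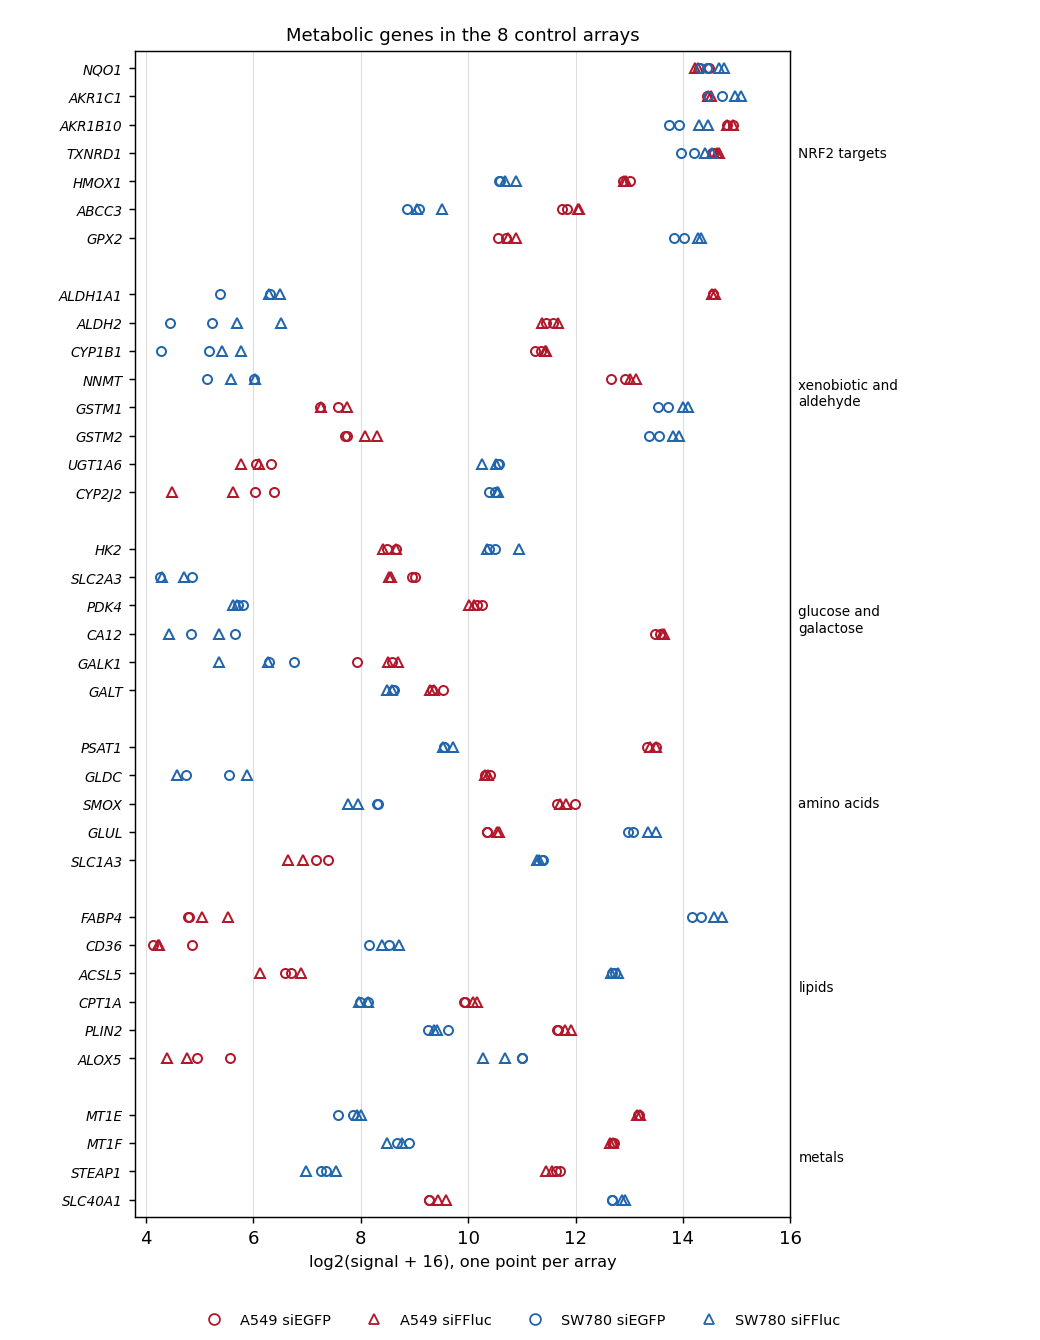
Signals of metabolic genes in each of the 8 control arrays on a log2(signal + 16) axis, red for A549 and blue for SW780, circles for siEGFP and triangles for siFFluc. NQO1, AKR1C1, AKR1B10 and TXNRD1 are bright in both lines, while ALDH1A1 and GSTM1 or CPT1A and FABP4 lie far apart in opposite directions.

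Metallothioneins, small proteins that bind zinc, copper and cadmium, were higher in A549 as a neighbouring cluster on chromosome 16. They are induced through metal response elements, which the factor MTF1 reads. The 7 genes followed here were picked as a run of neighbouring tested genes, all at least 2-fold higher in A549. Their shared direction therefore follows from that choice. The promoters of 3 of them are shown. They are GRCh38.p14 windows from RefSeq, 5′ to 3′ along the gene, with matches to TGCACNC or TGCGCNC on either strand in capitals.
MT2A at chr16:56608334-56608583 on the plus strand: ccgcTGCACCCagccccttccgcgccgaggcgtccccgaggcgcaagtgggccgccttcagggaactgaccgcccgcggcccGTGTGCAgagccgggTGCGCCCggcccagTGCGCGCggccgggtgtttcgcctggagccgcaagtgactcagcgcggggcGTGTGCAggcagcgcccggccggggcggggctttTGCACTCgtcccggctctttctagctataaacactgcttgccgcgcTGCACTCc
MT1H at chr16:56669571-56669813 on the plus strand: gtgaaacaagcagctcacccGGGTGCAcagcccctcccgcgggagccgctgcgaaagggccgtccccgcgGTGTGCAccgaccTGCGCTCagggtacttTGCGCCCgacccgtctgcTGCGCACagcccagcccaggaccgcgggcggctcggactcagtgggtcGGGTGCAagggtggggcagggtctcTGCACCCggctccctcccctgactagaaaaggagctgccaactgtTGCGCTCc
MT1X at chr16:56682300-56682443 on the plus strand: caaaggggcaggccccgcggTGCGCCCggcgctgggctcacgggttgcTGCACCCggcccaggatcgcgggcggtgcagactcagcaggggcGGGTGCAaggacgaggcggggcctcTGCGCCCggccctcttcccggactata
These 3 were the members with a promoter in the table, and each held at least 3 matches in the 250 bases before its start (7, 8 and 4), as did 1.56% of all promoters, while 24.7% of all held at least 1. The letters are short and say nothing of whether MTF1 was bound.

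MT1E had signals of 9138, 9279, 8988 and 9374 in A549 and 216, 176, 240 and 227 in SW780 (-5.33 ± 0.07, adjusted p = 3.2e-12), and MT2A had means of 23332 ± 586 in A549 and 4117 ± 360 in SW780, MT1X 14289 ± 995 in A549 and 1955 ± 199 in SW780, MT1H 10412 ± 789 in A549 and 909 ± 288 in SW780 and MT1F 6576 ± 157 in A549 and 404 ± 49.1 in SW780. The genes are near-identical, so the probe sets may share targets and are not 7 separate observations. Of 19 tested iron and metal genes 9 were at least 2-fold higher in A549, but 6 of the 9 were metallothioneins. The other 3 were ceruloplasmin (CP) and the metal reductases STEAP1 (3084 ± 233 in A549 and 142 ± 25 in SW780) and STEAP2 (430 ± 65 in A549 and 19.5 ± 11.4 in SW780). SLC40A1, the iron exporter ferroportin, was the member higher in SW780, with signals of 599, 602, 753 and 682 in A549 and 6520, 6520, 7469 and 7711 in SW780 (3.39 ± 0.06, adjusted p = 1.13e-11). Export pumps were divided, 4 and 3 of 11. ABCG2, a drug efflux pump, had means of 1275 ± 46.1 in A549 and 4171 ± 415 in SW780, ABCC5 495 ± 21.2 in A549 and 2268 ± 172 in SW780 and the cholesterol exporter ABCA1 1115 ± 185 in A549 and 25.3 ± 4.29 in SW780.

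Proliferation genes differed modestly. Of 38 mitosis genes 25 were called higher in A549 and 5 in SW780 (median -0.42), with 6 and 1 at least 2-fold apart. The kinases PLK1 and AURKB had means of 1946 ± 539 in A549 and 433 ± 103 in SW780 and of 2950 ± 174 in A549 and 777 ± 67.5 in SW780, and the centromeric histone CENPA 1246 ± 67.5 in A549 and 429 ± 49 in SW780. NDC80, of the outer kinetochore, was the member higher in SW780 at 1141 ± 131 in A549 and 3272 ± 313 in SW780, while CDK1 was at 10950 in A549 and 10808 in SW780 and CCNB1 at 12915 in A549 and 13238 in SW780. Neither CDK1 nor CCNB1 passed the test. However, 2 other CDK1 probe sets were called higher in SW780 and 1 other CCNB1 probe set higher in A549. Of 29 ribosomal protein genes 21 were called higher in SW780 and 1 in A549, all by less than 2-fold, and their median of 0.25 became 0.01 after quantile normalization.

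The line difference was also compared between the control siRNAs. At an adjusted p of 0.05, 1 of the 14067 genes (0.00711%) had a line difference that depended on which control duplex was used. An unadjusted p under 0.05 was reached by 1340 of the 14067 genes. Some genes reach that without any such dependence, so the 1340 are not a count of dependent genes. With 4 residual degrees of freedom a small dependence can also go uncalled, so the 1 gene is not such a count either. With siEGFP arrays alone 1438 genes were at least 2-fold higher in SW780 and 2254 in A549, and with siFFluc arrays alone 1463 and 2321. The number of genes that depended on the duplex changed most without SW780 siFFluc replicate 2, a fit that left 1 array in that group. Such a fit cannot tell which array of the group the change came from, and its cause was not tested.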

How the data were processed

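The authors deposited MAS5 signal intensities on a linear scale, per the submitters' processing notes, and the version was not given in the sources used here. Every array had a trimmed mean of 500.1 (2% of values dropped from either end), so all had been scaled alike. Of 54613 probe sets that are not Affymetrix controls, 41091 carried 1 gene symbol in the annotation given, 1801 several and 11721 none. Symbols were updated through a RefSeq table (GRCh38.p14), which matched 41037. Probe sets were kept whose mean over the 8 arrays reached 33.7, the 40th percentile and the limit for testing, and the brightest of each gene was tested. Of the 7088 genes with more than 1 kept probe set, 11% had another called the opposite way.

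limma 3.58.1 under R 4.3.3 fitted log2(signal + 16) with 4 group means (line by control siRNA), a trended prior variance and 4 residual degrees of freedom. The line contrast averaged both siRNAs, and p-values were adjusted by Benjamini-Hochberg over all 14067 genes, with a threshold of 0.05. The fit was tested on simulated data. No other value of the arrays, such as a detection call, was used.

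The members and the 47 gene lists (1117 genes, 911 of them tested) were chosen with earlier results of these data known, and the lists were given no test of their own. Genes named are a set of anchors, the 10 largest called differences in each direction with no overlap between lines, and up to 4 members per list and direction with the largest called difference of at least 2-fold. Other list members, and all runs of neighbouring genes, were named after their values were seen. Promoters are from RefSeq (GRCh38.p14). Figures used matplotlib 3.10.9 under Python 3.11.15.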

Additional observations from a re-analysis of the deposited data

Results flagged for a closer look

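DSTN had a line difference that depended on the control siRNA. It was -10.44 with siEGFP and -8.70 with siFFluc, and the difference between them was -1.73 ± 0.15 (limma, adjusted p = 0.00623). The SW780 signals were 1.5 and 1 with siEGFP and 38.2 and 47.3 with siFFluc, and the A549 signals were 24306, 23428.2, 24847.2 and 23975.8, so the call rests on SW780 signals near the floor of the array. Groups of the same line and siRNA had 2 arrays each, too few to look for an array far from the others.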

How the results depend on the processing

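Across 22 alternatives 259 of 295 named results kept their direction and their side of the threshold wherever they had a value. A missing value did not count against a result, and without shared probe sets only 211 of the 295 had a value. The 295 hold the named genes and also the counts of 2-fold members over all lists, which were tallied as kept. Of the others, 33 lost the call under at least 1 alternative and 2 gained it. The directions that turned were NQO1 after quantile normalization (-0.19), EGFR when its probe sets were averaged (-0.26), and AKR1C1 (-0.42) and SFTPB (0.13) without probe sets shared between transcripts, and the cause was not tested. Requiring the 2-fold difference itself to be significant, with limma's treat, lowered the 2-fold calls from 3783 to 2350 (957 with SW780 higher and 1393 with A549 higher), as that test asks more of each gene. Averaging the probe sets of a gene shrank 45 of the 295 named results by over 1.5 times, and leaving out shared probe sets 27 of 211. Both totals again include the list counts. Leaving out any 1 array kept 94.7% to 96.4% of the 3783 calls.

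The number of genes whose line difference depended on the control siRNA was 1, and 0 with a pseudocount of 64, without a trend in the prior variance, or without shared probe sets. It was 2 after quantile normalization or with probe sets averaged, and 3 in a fit of all 12 arrays. These alternatives for that count were chosen after seeing the data. Leaving out 1 array in turn gave 0 to 219, the highest without SW780 siFFluc replicate 2.

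Replicate numbers did not pair the arrays: deviations of same-numbered arrays correlated at -0.021 to 0.024. A replicate block gave 1456 and 2329 genes at least 2-fold higher in SW780 and in A549 and 2 genes that depended on the siRNA. Of the 2-fold calls, 1076 had the dimmer line under the limit for testing and 949 had the brighter line under a signal of 200, where the number and noise of the arrays limit precision.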

Other observations

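Neighbouring genes were examined after the differences had been seen, with the gene order of the RefSeq table and 14020 genes placed. There were 21 runs of at least 5 neighbouring tested genes that were all at least 2-fold different in 1 direction, 16 with A549 higher and 5 with SW780 higher. The longest was of 12 genes on chromosome 3, from MON1A to TMEM115, all higher in A549. It held RASSF1, a tumour suppressor of the RAS pathway, with means of 434 ± 19.4 in A549 and 4.45 ± 3.13 in SW780, NPRL2, a brake on mTORC1, with 1356 ± 104 in A549 and 7.48 ± 7.04 in SW780, and the splicing factor RBM5 with 1242 ± 164 in A549 and 7.4 ± 1.5 in SW780. All 12 had SW780 means between 4.45 and 147 and A549 means between 102 and 3041. On chromosome 9 a run from KLHL9 to CAAP1 held CDKN2A and MTAP, with ELAVL2 (584 ± 61.6 in A549 and 25.2 ± 15.8 in SW780) and TUSC1 (1461 ± 131 in A549 and 657 ± 110 in SW780). A further pair of runs on that chromosome, from MELK to TOMM5 and from SLC25A51 to FRG1HP, had 8 genes each, again with A549 higher. Another there, from BNC2 to PLIN2, had 5 genes, also with A549 higher. The metallothionein cluster made 1 run of 7 genes on chromosome 16 and the chemokine genes from CXCL8 to CXCL2 1 of 6 on chromosome 4.

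Runs with SW780 higher included 9 genes on chromosome 1 from PKN2 to GBP6, with the interferon-inducible GTPases GBP1 (910 ± 33.6 in A549 and 4527 ± 326 in SW780) and GBP2 (89.3 ± 40.3 in A549 and 465 ± 109 in SW780). This direction was opposite to that of most interferon-stimulated genes in the list. A run of 8 genes on chromosome 12 held the lectin receptors CLEC2B, CLEC7A and OLR1 (134 ± 21.3 in A549 and 4813 ± 613 in SW780). Chromosome 9 had 28.7% of its tested genes at least 2-fold higher in A549 and chromosome 10 25%, against 16.5% over all genes, with medians of -0.47 and -0.39. Chromosome 21 had a median of 0.33. The number of DNA copies was not analysed here, and its part in these runs was not tested.

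DSTN and its neighbour RRBP1 on chromosome 20 were both near the floor in SW780. The brightest RRBP1 probe set gave 1810.3 to 1852.3 in A549 and 1.5 to 2 in SW780, and another DSTN probe set gave 16529.2 to 19494.1 and 17.2 to 24.8.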
